A study of Drosophila melanogaster with 3 samples.

Results

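Dense clusters were runs of Mabi (CG15479) binding sites packed closely along the chromosomes of the early Drosophila melanogaster embryo. Members were selected on the positions of peaks in the deposited optimal irreproducible discovery rate (IDR) list, which keeps peaks found reproducibly across replicates. Each distinct interval was kept once, with its highest signal, and neighbouring summits at most 5000 bp apart were linked. Intervals in linked groups of 4 or more were members. There were 975 members of 4447 intervals (21.9%), in 197 clusters that together spanned 1.74 Mb, or 1.30% of the chromosome arms.

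Sites bound by Mabi were found by chromatin immunoprecipitation with sequencing of whole, mixed-sex embryos aged 0 to 4 h. All came from a transgenic D. melanogaster line, labelled CG15479-GFP, that carries green fluorescent protein (GFP) at the C-terminus of Mabi, and chromatin was sonicated to 200 to 800 bp. The description of the samples names an anti-GFP antibody, while their antibody field names CG15479. The source name in the labels speaks of an insertion that targets Mabi, and no further genotype is named. The 3 biological replicates formed 1 group, with no second condition, so no test between conditions was made. Such embryos pass through the syncytial divisions, cellularisation and gastrulation, and each value is a mean over all their cells and stages. The 3 replicate lists were each made with the same control file, per the text files deposited with them, so agreement among replicates can partly be shared with that control.

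Many regulators of the early fly embryo bind in groups of neighbouring sites rather than at lone sites. Developmental genes such as the segmentation genes are controlled by several separate enhancers upstream, downstream and in introns, and each enhancer can be occupied by many factors at the same time. Zelda, a zinc-finger protein that opens chromatin when the zygotic genome is activated, binds CAGGTAG, and GAGA factor binds GAGAG and also keeps chromatin accessible. Mabi itself has been linked to cell death during early embryonic development.

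Sequences are shown for windows of 201 bases centred on summits of 5 clusters. They show what the strongest sites looked like in a cluster inside a gene, in a cluster across a gene complex, in a cluster in intergenic sequence, in a cluster rich in GAGAG and at the tagged gene. All are the plus strand of genome Release 6 (dm6), from RefSeq, 5′ to 3′. Capitals mark CAGGTAG and GAGAG on either strand, which appear as CTACCTG and CTCTC where they lie on the minus strand. The windows lay at chr3L:10862609-10862809 and chr3L:10863987-10864187 for tna, at chr3L:14968024-14968224 and chr3L:14961435-14961635 for the Bearded complex, at chr3R:5109887-5110087 for corto, at chrX:2305918-2306118 for Raf and at chr2L:13234991-13235191 for Mabi.
tna strongest: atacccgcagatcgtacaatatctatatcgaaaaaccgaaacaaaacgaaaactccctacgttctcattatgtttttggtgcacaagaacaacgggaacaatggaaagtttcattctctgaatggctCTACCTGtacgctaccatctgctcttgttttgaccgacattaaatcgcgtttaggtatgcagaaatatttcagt
tna weakest: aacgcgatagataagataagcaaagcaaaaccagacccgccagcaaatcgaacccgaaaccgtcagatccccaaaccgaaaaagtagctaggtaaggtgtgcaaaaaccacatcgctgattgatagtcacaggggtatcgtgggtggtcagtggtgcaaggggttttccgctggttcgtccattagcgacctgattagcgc
Bearded complex strongest: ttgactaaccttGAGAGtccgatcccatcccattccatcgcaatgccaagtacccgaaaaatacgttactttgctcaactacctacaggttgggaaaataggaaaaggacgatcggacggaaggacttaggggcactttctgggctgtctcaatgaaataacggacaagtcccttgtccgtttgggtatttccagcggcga
Bearded complex weakest: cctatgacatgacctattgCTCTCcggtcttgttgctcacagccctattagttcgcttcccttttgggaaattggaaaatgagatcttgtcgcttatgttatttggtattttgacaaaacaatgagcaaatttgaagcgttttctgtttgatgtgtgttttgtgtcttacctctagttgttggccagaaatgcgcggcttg
corto strongest: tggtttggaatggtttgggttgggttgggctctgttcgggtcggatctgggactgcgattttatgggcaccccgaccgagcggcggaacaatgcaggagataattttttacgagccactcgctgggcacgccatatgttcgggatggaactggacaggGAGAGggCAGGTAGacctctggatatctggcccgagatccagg
Raf strongest: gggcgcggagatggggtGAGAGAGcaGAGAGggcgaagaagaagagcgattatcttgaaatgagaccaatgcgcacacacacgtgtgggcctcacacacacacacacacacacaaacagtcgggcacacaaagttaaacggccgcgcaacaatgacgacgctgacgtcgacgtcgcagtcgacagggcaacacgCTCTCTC
Mabi strongest: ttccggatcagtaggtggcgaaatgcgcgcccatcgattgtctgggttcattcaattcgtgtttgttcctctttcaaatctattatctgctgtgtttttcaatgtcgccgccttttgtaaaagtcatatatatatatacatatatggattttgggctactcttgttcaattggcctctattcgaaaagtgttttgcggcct

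The strongest tna window held 1 CAGGTAG and the weakest held neither motif. Both windows of the Bearded complex held 1 GAGAG. The weakest interval there, of 329.4, had its summit 201 bp from that of an interval of 1050. It was thus not a weak site standing apart from stronger ones. The strongest corto window held both motifs close together, and the strongest Raf window held 5 overlapping or separate copies of GAGAG. The window at Mabi, the strongest site of all, held neither.

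Most clusters were small. Of the 197, 113 held 4 intervals, 37 held 5 and 47 held 6 or more, and 14 held at least 8. The largest held 15. The remaining intervals were 1629 that stood alone, 593 groups of 2 and 219 groups of 3. The median cluster spanned 8248 bp, with quartiles of 6163 and 10562 bp and a range from 1847 to 26599 bp. Inside the clusters the median distance between neighbouring summits was 1885 bp, and 178 of 778 such distances (22.9%) were below 1000 bp. The largest distance inside a cluster was 4993 bp and the smallest distance that ended a group was 5007 bp. Among all neighbouring summits of the list, 105 were more than 4500 and at most 5000 bp apart, and 67 were more than 5000 and at most 5500 bp apart.

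Some neighbouring intervals were nearly the same interval. The authors' list gives some summits an interval of their own that shares an edge with another, such as a pair at sim that begins at the same base on 3R and ends at 13064586 and 13064588. Of the members, 76 (7.79%) shared an edge with another interval, against 110 (3.17%) of the other intervals, and 100 members overlapped an earlier interval. After overlapping intervals were merged, 152 clusters with 742 members of 4142 remained. Members that begin at the same base as another member had the same value as it in every replicate.

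**Figure D1:**
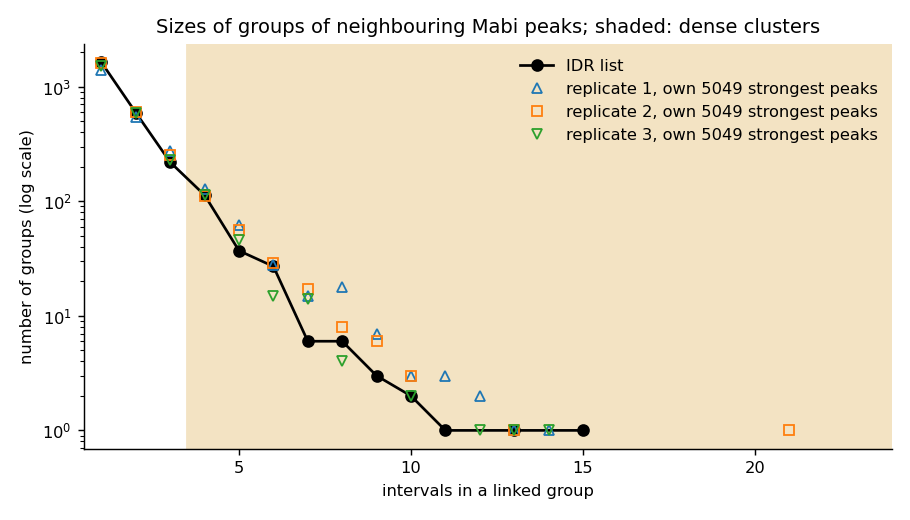
Number of linked groups (y axis, log scale) by the number of intervals in the group (x axis). Black points joined by a line are the reproducible (IDR) list, open symbols are the same rule applied to the 5049 strongest peaks of each replicate, and the shaded sizes are dense clusters. In all 4 lists, large groups were rarer than small ones, and the largest held 15 intervals in the IDR list and 14, 21 and 14 in replicates 1, 2 and 3.

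Dense clusters also formed in each replicate taken alone. When the rule was applied to the 5049 strongest peaks of a replicate, as many as the reproducible list has rows, there were 268 clusters in replicate 1, 233 in replicate 2 and 198 in replicate 3 (233.0 ± 35.0, SD, n = 3). They held 30.0%, 25.2% and 22.2% of those intervals. Of the 197 clusters, 158, 154 and 146 met a cluster of replicates 1, 2 and 3, a mean of 77.5% ± 3.10 (SD, n = 3). All 3 replicates had a cluster of their own at 108 of the 197 sites (54.8%), while 52 were met in 2 replicates, 30 in 1 and 7 in none. Those 7 lay at baf and Cka, at Acbp1 and Piezo, at bru2, at Gyg, at the pair-rule gene opa, at Rheb and CRMP, and at Spase22-23 and mask. The reproducible list was derived from these replicates, so these counts describe how the clusters were built and are not independent support for them.

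Members tended to be stronger than other intervals by a small margin. The median deposited signal, whose scale is not stated, was 517.8 among members, with quartiles of 365.4 and 821.1, against 455.2 among other intervals, with quartiles of 353.9 and 687.9. Signal chose which peaks entered the list and so is given as a description. Relative to the median of a replicate's own 5049 strongest peaks, members had medians of 1.16, 1.19 and 1.13 in replicates 1, 2 and 3, against 0.981, 1.01 and 0.967 for other intervals. The ratio of members to others was 1.18 ± 0.00758 (SD, n = 3). The ranges of members and others overlapped almost wholly, from 291.3 to 8663 and from 291.3 to 6785. Median signal was 434.1 for intervals alone, 469.9 in groups of 2, 494.6 in groups of 3, 516.3 in groups of 4, 501.0 in groups of 5 and 528.0 in larger groups. It thus climbed up to groups of 4 with no step at the size that defined a cluster. Members were 80 of the 250 strongest intervals (32.0%) and 190 of the 1000 weakest (19.0%).

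**Figure D2:**
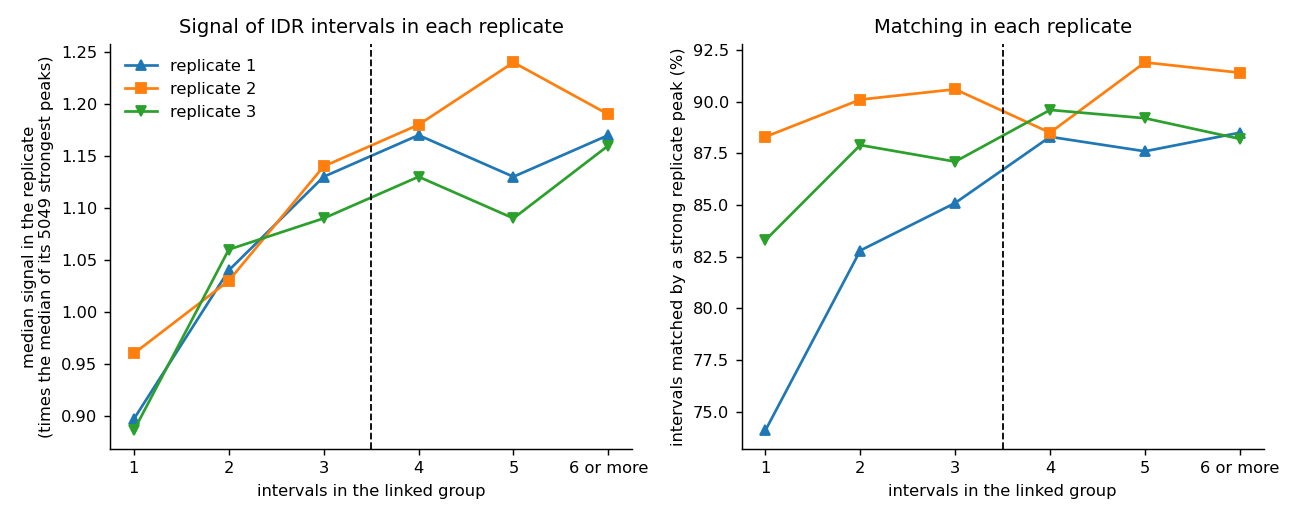
Left, median signal of IDR intervals in each replicate, as a multiple of the median of that replicate's 5049 strongest peaks (y axis, which does not start at 0), by size of the linked group (x axis). Right, percentage of IDR intervals matched by one of those strong peaks. Each line is a replicate, and dense clusters lie right of the dashed line. Signal climbed between groups of 1 and 4 in all 3 replicates, and matching did so most in replicate 1, which matched 74.1% of lone intervals and 88.3% of those in groups of 4.

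The replicates shared most members. An interval was counted as matched where it overlapped one of a replicate's 5049 strongest peaks by at least 50% of either peak. All 3 replicates matched 723 members (74.2%), against 65.5% of other intervals. Another 188 members had a match in 2 replicates, 62 had it in 1 and 2 lacked any. Replicate 1 matched 88.2% of members and 79.1% of others, replicate 2 matched 90.2% and 89.4%, and replicate 3 matched 89.0% and 85.6%. Most of the difference thus lay in replicate 1. Against the complete replicate lists, 98.2% of members and 97.7% of others were matched in all 3. Within a cluster, the strongest interval had a median of 3.33 times the signal of the weakest, with a range from 1.10 to 29.7 times. The strongest lay at an end of the cluster in 79 clusters (40.1%). That count depends on the number of intervals in a cluster, and no preferred position is read from it.

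Members lay away from promoters more often than other intervals. A promoter here reaches 500 bp to either side of a protein-coding transcription start site (TSS). It held 325 member summits (33.3%), against 45.9% of other intervals. Introns held 408 members (41.8%) and 1137 others (32.7%), and intergenic sequence held 164 (16.8%) and 494 (14.2%). Genes without a protein product held 40 members (4.10%) and 76 others (2.19%), and coding exons held 17 (1.74%) and 78 (2.25%). The median distance to the nearest TSS was 1512 bp for members and 673 bp for others. In clusters built from each replicate alone, the promoter share was 30.2%, 29.8% and 32.4% in replicates 1, 2 and 3 (30.8 ± 1.40), against 44.0%, 45.9% and 47.7% of the intervals outside them (45.9 ± 1.84, SD, n = 3). The members' shares were below the others' in every replicate, by more than the spread between replicates.

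The promoter share was lower the larger the group. It was 48.6% for intervals alone, 45.3% in groups of 2, 40.2% in groups of 3, 39.4% in groups of 4, 33.5% in groups of 5 and 25.1% in groups of 6 or more. The intron share was 28.1% for lone intervals, 34.1% in groups of 2, 41.7% in groups of 3, 41.2% in groups of 4, 40% in groups of 5 and 43.8% in the largest groups, so groups of 3, which are not members, were already level with members. Distance from a TSS followed the same order, with medians of 569, 654, 977, 1028, 1680 and 2218 bp. No test over intervals was made, because intervals of 1 cluster are not independent.

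**Figure D3:**
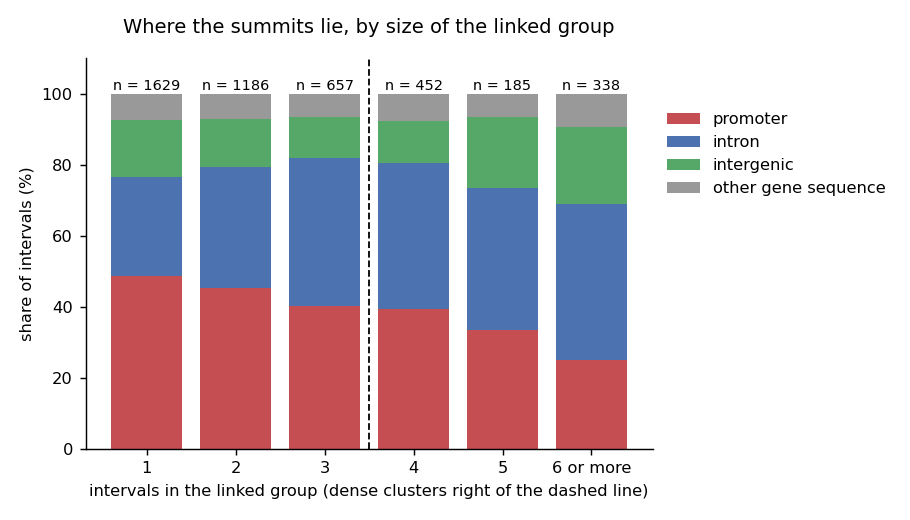
Share of IDR intervals (y axis, percent) whose summit lay at a promoter, in an intron, in intergenic sequence or in other gene sequence, by size of the linked group (x axis), with the number of intervals above each bar. Dense clusters lie right of the dashed line. The promoter share is 48.6% for lone intervals and 25.1% in groups of 6 or more.

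Most clusters included a promoter summit. At least 1 promoter summit was present in 164 of 197 clusters (83.2%), 33 had none and 11 had promoter summits only. These counts depend on cluster size and on the promoter share of members, 33.3%. No excess or lack is read from them. The strongest interval was in an intron in 80 clusters, at a promoter in 68 (34.5%) and intergenic in 30. The span of a cluster held a start of 1 protein-coding gene in 91 clusters, of 2 in 37, of at least 3 in 40 and of none in 29. In 72 clusters (36.5%) a single gene held every summit. Genes with many member summits were long, though a count of at least 4 favours long genes. Genes with any member summit (364) had a median length of 5748 bp. The 112 genes with at least 4 member summits in their model or within 1000 bp of a start had a median length of 22947 bp, the 2555 genes with other IDR summits only had 4979 bp, and all 13945 protein-coding genes had 2166 bp. Whether gene length accounts for these clusters was not tested.

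Other clusters ran across several short genes. The cluster with starts of the most genes, 11 in 14234 bp on 2L, ran through eIF3i and mRpL28. These are genes for a translation initiation factor subunit and a mitochondrial ribosomal protein. The 5 summits of this cluster were all at promoters, with signals from 295.1 to 710.1. In another all-promoter cluster on 3R, RpS25 and RpL3, ribosomal protein genes, had 1382 and 575.0. Over all clusters, 186.4 protein-coding genes per Mb had a start inside them, against 104.2 genes per Mb on the arms as a whole. Each gene was counted once, and a gene with several starts had more ways to fall in a cluster. The spans were drawn around peaks, and 33.3% of member summits were at promoters. Sequence around other IDR intervals was not compared, so the density is not read as a trait of dense clusters.

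The tna cluster had the most intervals, 15 over 16783 bp of 3L (10847426 to 10864208), all within the tna gene. The protein tonalli is related to SUMO ligases and works with the Brahma chromatin remodelling complex. Of its summits, 13 were intronic and 2 at promoters, and signals lay between 307.8 and 1236. The replicates had 14, 13 and 14 intervals of their own there. Its strongest site had 2.95, 2.25 and 2.48 times the list median in replicates 1, 2 and 3, so the cluster was made of many moderate sites. Of the 15, 10 were matched in all 3 replicates.

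The widest cluster, of 26599 bp, covered Tom, Brd and Ocho, genes of the Bearded complex whose small proteins inhibit Notch signalling by blocking Neuralized. It ran from 14953137 to 14979735 on 3L and its 13 intervals held 25 summits. Intergenic sequence held 9 of the intervals, and the promoters of Tom, Brd, Ocho and CG3349 held 1141, 1243, 516.5 and 365.8. The strongest interval, 1220 bp from the Tom start, had a signal of 3060, with 6.35, 4.78 and 7.25 times the list median in replicates 1, 2 and 3. Another intergenic site, 10806 bp from BobA, had 2719, with 4.78, 4.94 and 6.43 times the list median. All but 1 of the 13 were matched in all 3 replicates. The highest 3 values at this locus were intergenic. The promoters of Brd and Tom were above 6 and 5 of the 9 intergenic sites. The weakest interval, intergenic too, had its summit 201 bp from that of an interval of 1050. A further cluster of 4 at mnd, an amino acid transporter gene, began 7356 bp beyond it.

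The E(spl) complex, whose genes encode repressors and Bearded-like proteins switched on by Notch, held 2 clusters on 3R. The first, of 8 intervals from 26017720 to 26031053, covered the starts of E(spl)m3-HLH, E(spl)m4-BFM and E(spl)m5-HLH. Their promoters had 315.2, 352.0 and 310.5, near the lowest values in the list, and a promoter interval of E(spl)m2-BFM had 563.7. An intergenic site 1088 bp from E(spl)m5-HLH had 1247 and reached 2.94, 2.46 and 2.17 times the list median in replicates 1, 2 and 3. Of the 8 intervals, 3 were matched in all 3 replicates. The second, of 4 intervals, covered E(spl)m7-HLH, E(spl)m8-HLH and gro, which encodes the corepressor Groucho. Its strongest interval, 544 bp from the start of E(spl)m7-HLH, had 1768, and gro had 804.3 and 756.5 at its promoters. The edges of these clusters were 4991 bp apart and their nearest summits 5671 bp, so the threshold on summits alone kept them separate. Of 11 E(spl) complex genes, 5 had a start in a cluster and 6 a member summit, against 2.32% and 2.61% of all protein-coding genes. Any IDR interval was present at 8 of the 11. The genes are neighbours in 1 complex and these starts fell in 2 clusters, so they are not separate observations.

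**Figure D4:**
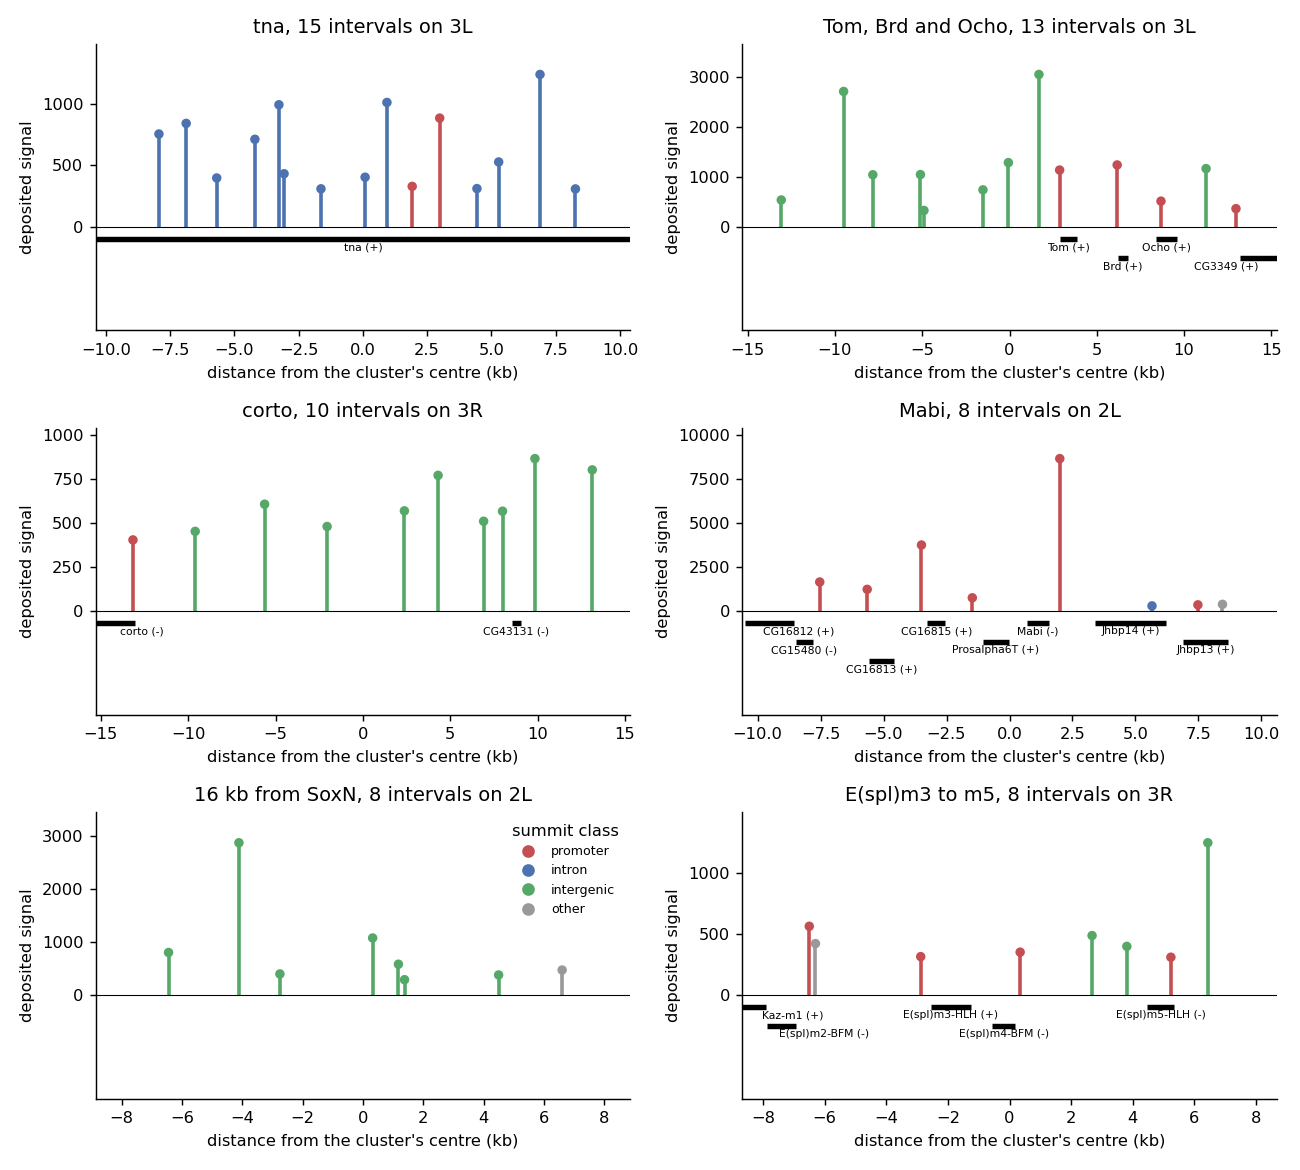
Deposited signal (y axis) of each member interval by the distance of its summit from the centre of the cluster (x axis, kb) for 6 clusters, coloured by the class of the summit. Black bars below are protein-coding genes with their strand. The tna and corto clusters held many sites of similar height, the Mabi cluster had 1 site of 8663 above all others, and in the Bearded and E(spl) clusters the tallest sites were intergenic.

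The cluster at the tagged gene had the widest range of signals of all 197. It held 8 intervals from 13224496 to 13241693 on 2L and the starts of 7 genes. The strongest, at the Mabi promoter, had 8663 and reached 16.3, 16.0 and 19.1 times the list median in replicates 1, 2 and 3. On 1 side, CG16815 had 3752, CG15480 1650, CG16813 1232 and Prosalpha6T, a testis proteasome subunit gene, 751.8. On the other side, 3 intervals at Jhbp14 and Jhbp13 had only 291.6 to 379.4. The strong sites of this cluster thus lay at Mabi and on its lower-coordinate side. The line carries a Mabi transgene, and its part in the signal at this locus was not tested.

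The other clusters with many intervals lay mostly in introns and promoters of 1 or a few genes. Socs36E, an inhibitor of JAK/STAT signalling, and kel, which builds ring canals in the ovary, shared 9 intervals on 2L (18137726 to 18152581), of which the Socs36E promoter had 1162 and the kel promoter 378.8. Raf, the kinase that relays receptor tyrosine kinase signals to MAP kinase, had 7 intronic intervals in a cluster of 9 on X (2293299 to 2307892). The strongest, 10552 bp from the start, had 1660 and 3.43, 3.66 and 2.90 times the list median. E2f1, a regulator of S phase entry, had 8 on 3R (21626694 to 21644688), between 293.6 and 884.6, and its promoter had 483.0. Its neighbour InR, the insulin receptor gene, had a cluster of 7 that ended 7292 bp away, with 1665 in an intron and 320.2 and 297.7 at promoters. On 2R, shn, a zinc-finger mediator of Dpp signalling, had 11 with a maximum of 2178, and HmgZ and HmgD, genes of chromosomal HMG proteins, shared 10 with a maximum of 1563. Another cluster of 9 ran from AGO1, the microRNA Argonaute gene, to CtsL1, a lysosomal protease gene. Its maximum of 2283 was in an intron of CtsL1, and the AGO1 sites had 363.7, 322.2 and 610.5. Smr, a corepressor gene on X, shared 8 with CG4004, with a maximum of 1682 in a gene without a protein product, 5519 bp from the CG4004 start. In InR and E2f1 the promoters had less signal than the strongest intron site.

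Some clusters lay mainly between genes. The corto cluster on 3R (5086864 to 5113426) had 10 intervals, 9 of them intergenic. Corto interacts with Polycomb and trithorax group proteins. Signals lay between 404.3 and 866.6, a narrow range, with the corto promoter lowest. Its span also held the start of CG43131, and the highest site, 809 bp from that start, had 1.74, 1.61 and 1.88 times the list median in replicates 1, 2 and 3. A cluster of 8 on 2L (8838951 to 8852648) held no start. Its strongest interval had 2881 and lay 16045 bp from SoxN, a Sox factor of the early nervous system, with 5.42, 5.67 and 6.02 times the list median. Another cluster of 6 without a start lay between ftz and Antp on 3R (6881557 to 6893678), where an intergenic site had 2053, with 4.28, 4.38 and 3.69 times the list median, and a site in a gene without a protein product had 1941. The gene nearest a site is a matter of distance, and no site was tied to a target gene.

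The clusters of the highest summed signal also included shorter ones. Traf4, an adaptor of JNK signalling, had 5 on 2L (4364066 to 4372563), with 3388 at the promoter and 2487 and 1504 in introns. The promoter had 5.41, 7.64 and 6.57 times the list median in replicates 1, 2 and 3. The ush cluster on 2L (510470 to 523880) had 6 intervals with 11 summits, of which 4 intronic ones had 1233 to 1748 and the promoter 754.5. Ush is a cofactor of GATA factors in the dorsal ectoderm. On 2R, Ppa, an F-box protein gene, had 6 with a maximum of 3437 at 971 bp from its start, and wech, a gene of integrin attachment, had 5 with a maximum of 2667 in intergenic sequence 856 bp from its start. The smallest cluster, 1847 bp at baf and Cka on 2L, held 2 pairs of overlapping intervals and was therefore 2 sites counted as 4.

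Early patterning genes were often in dense clusters. Of 65 genes in the Hox, dorsoventral, segment polarity, pair-rule and gap or terminal lists together, 17 (26.2%) had a start in a cluster, against 2.32% of all 13945 protein-coding genes. A member summit in the gene or within 1000 bp of a start was present at 19 (29.2%), against 2.61% of all. These genes often have any IDR interval (53 of 65). Of all 13945 genes, 364 had a member summit and 2555 had other IDR summits only. The patterning lists were thus ahead of all genes in IDR intervals of any kind, not only in dense clusters. The count is a description and no set test was made. Gene length and number of starts were not matched. In clusters from the replicates alone the count was 19, 19 and 16. Among intervals matched in the other 2 replicates it was 13 without replicate 1, 12 without replicate 2 and 9 without replicate 3.

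Segmentation genes differed in where their strongest site lay. Hairy (hry), a pair-rule repressor, had a cluster of 5 on 3L with 3716 at the promoter, 7.16, 7.78 and 7.09 times the list median in replicates 1, 2 and 3, and 1461 at 4572 bp from the start. The gap gene hb, a zinc-finger regulator of the anterior, had 523.9 and 313.7 in overlapping promoter intervals and 1017 at a site 1603 bp away. Hkb, which acts at the embryo's ends, had 481.4 at its promoter and 1988 at 1971 bp from the start, the second with 3.91, 3.23 and 4.62 times the list median. The ftz cluster, at a homeodomain pair-rule gene, had 1060 at the promoter. Among gap and terminal genes 4 of 11 had a start in a cluster (hb, Kr, hkb and btd), as did 5 of 9 pair-rule genes (hry, ftz, prd, opa and slp1). The segment polarity list had 1 of 13, the Hedgehog receptor gene ptc, with up to 1523 in the gene or within 1000 bp of a start. Of 8 Hox genes only Antp had a start in a cluster, while Ubx and lab had member summits in their models, up to 713.1 and 1492.

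Dorsoventral genes contributed 6 of 24, namely sna, sim, ush, Doc1, Doc2 and Doc3. The 3 Doc genes encode T-box factors of the dorsal ectoderm and amnioserosa and lie side by side on 3L, and each had its own cluster of 4. Their promoters had 752.5 for Doc1, 751.4 for Doc2 and 1201 for Doc3. Sim, the midline regulator, had 7 on 3R (13061295 to 13072671), with 1498 in an intron and 1325 at the promoter, or 2.76, 2.89 and 3.11 and 2.93, 3.07 and 2.33 times the list median. The cluster at sna, the mesodermal repressor, had 7 intervals between 292.3 and 817.5, of which 624.8 was at its promoter. Its weakest interval had no matching peak in replicates 1 and 3.

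For the other lists, counts of genes with a start in a cluster stand beside 2.32% of all 13945 protein-coding genes. Any IDR interval was present at 13 of 19 Polycomb and trithorax genes and 8 of 14 cell death genes. It was present at 10 of 14 cellularisation and early zygotic genes and 20 of 36 paired transcription factor genes. Among all genes, 364 had a member summit and 2555 had other IDR summits only. These lists were thus ahead of all genes in IDR intervals of any kind, not only in dense clusters. Polycomb and trithorax genes had 4 of 19 (trx, ph-p, phol and Su(z)2), and trx, a histone methyltransferase gene, had 2003 at its promoter with 3.68, 4.05 and 4.13 times the list median. Cell death genes had 3 of 14, namely Mabi, rpr and scyl, of which Mabi is the tagged gene. The cluster of rpr, which releases caspases from inhibition, reached 2211, while the strongest site in the gene or within 1000 bp of its start had 600.2. Cellularisation and early zygotic genes had 1 of 14, trbl, which holds back mitosis through String and had 4032 at a site 1249 bp from its start and 710.3 at its promoter. That site reached 7.62, 8.08 and 8.37 times the list median. Nullo, of the same list, had a member summit of 396.6 without a start in a cluster. Of 36 paired transcription factor genes in complexes, sna and drm had a start in a cluster. Ribosomal protein genes had 4 of 92 (RpL3, RpS25, RpS4 and RpLP2), or 4.35%, and 41 had an IDR interval. Insulator and GAGA-type factor genes had 0 of 15 and hormone response genes 0 of 14, and 12 of each had an IDR interval. At the share of all genes, lists this short can be without a gene in a cluster, so no lack is read from them. Chemoreceptor genes had 0 of 179 and cuticle protein genes 0 of 122, and 4 of each had any.

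Windows of 201 bases around member summits held the Zelda and GAGA motifs slightly more often than those of other intervals. CAGGTAG was in 71 member windows (7.28%), against 5.41% of other IDR windows and 1.09% of 664860 windows tiled along the arms. In clusters from replicates 1, 2 and 3 the share was 7.98%, 6.48% and 6.42%, against 5.56%, 4.92% and 5.79% outside them. The members' shares were thus higher in all 3, though the values came close in replicate 3. In the IDR list it was 10.4% in groups of 6 or more, 5.75% in groups of 4 and 5.41% in groups of 5. Lone intervals had 6.08%, groups of 2 had 4.05% and groups of 3 had 6.24%. Groups of 4 and 5 were thus not above lone intervals, and only the largest groups were. In the replicates, groups of 6 or more had 8.75%, 7.16% and 9.32%. GAGAG was in 381 (39.1%), against 33.6% of other IDR windows and 21.5% of tiles. In the replicates it was 40.0%, 37.7% and 37.6%, against 35.2%, 33.9% and 33.8% outside clusters. Among the stronger intervals alone (signal above the median of the list) the order turned, with GAGAG in 35.6% of members and 37.7% of others. By group size GAGAG was in 31.9% of lone intervals, 34.0% in groups of 2 and 37.1% in groups of 3. Groups of 4, 5 and 6 or more had 39.4%, 37.8% and 39.3%, so groups of 3, which are not members, were already close to members. The longer repeat GAGAGAGA was at 6.56% in members, 6.68% in others and 1.13% of tiles.

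TATCGATA, GGTCACAC and CACATG were less frequent in members than in other intervals. TATCGATA, the site of the replication-related factor DREF, was in 12 members (1.23%), against 2.51% of other IDR windows and 0.564% of tiles. GGTCACAC, the core of a promoter motif bound by M1BP, was in 13 (1.33%), against 2.30% of others and 0.430% of tiles. Among promoter summits alone the shares were 2.77% and 4.77% for TATCGATA and 3.08% and 4.65% for GGTCACAC, so the order was the same within promoters. By group size the order was not even. Groups of 5 had TATCGATA in 3.24% (6 windows) and lone intervals in 3.25%. For GGTCACAC these shares were 2.70% (5 windows) and 2.64%. CACATG, an E-box bound by Twist, was in 102 members (10.5%), against 13.8% of others and 8.89% of tiles, and lower within promoters too (7.38% and 12.2%). CAGGTAG was at 5.23% and 3.83% of promoter summits, 7.60% and 6.60% of intronic ones and 11.0% and 6.48% of intergenic ones in members and others. Base composition was close, with a median GC of 45.8% in members and 45.3% in others. Motifs were read on both strands, and GAGAGAGA holds GAGAG within it as TATCGATA holds CGATA. A match of letters is not a bound site.

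The other motifs searched were at these shares. CACACACA was in 14.3% of member windows, 13.5% of others and 4.09% of tiles, and CGATA, a core bound by BEAF-32, in 29.2%, 31.8% and 21.4%. TAATCC, the Bicoid core, was in 6.36% of members, 6.31% of others and 6.82% of tiles, and TTTATTG, the Caudal core, in 6.46%, 6.91% and 8.34%. CACCTG, a Snail E-box, was in 66 of 975 member windows, 227 of 3472 others and 7.87% of tiles. GGCGCC, a Brinker site, was in 2.46% of members, 2.62% of others and 3.09% of tiles, and AGGACC, the Tramtrack core, in 2.97%, 3.46% and 4.80%. The homeodomain core TAATTA was in 78 member windows, 306 others and 12.5% of tiles, and AAAAAAA in 125, 487 and 16.3%. CAAGGTCA, the FTZ-F1 site, was in no member window, in 19 others (0.547%) and in 3325 of the 664860 tiles. With clusters built from each replicate alone, CACCTG was higher in members than in others in all 3 replicates. CGATA, CAAGGTCA and AAAAAAA were lower in all 3.

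The number of clusters with a motif depends on cluster size and on the share of member windows with it. That share was 39.1% for GAGAG and 7.28% for CAGGTAG. Whether motifs gathered in some clusters was not tested. GAGAG was in at least 1 member window of 172 clusters (87.3%) and in 2 or more of 130. CAGGTAG was in 62 clusters (31.5%), in 2 or more windows of 7, and in 3 windows at most, in the sna and the Bearded clusters. The sequences printed for Raf belonged to the cluster with the most GAGAG windows, 7 of 9. At Mabi 1 of 8 windows held CAGGTAG and none held GAGAG.

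**Figure D5:**
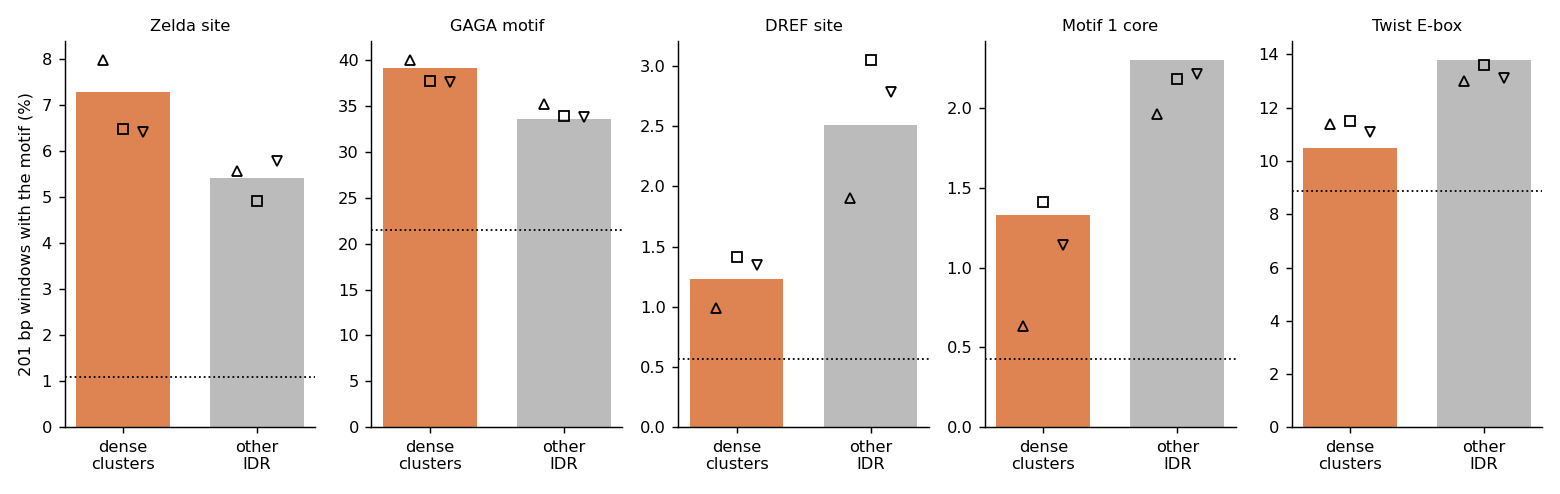
Percentage of 201 bp windows around summits that held a motif (y axis, from 0, with its own scale in each panel) for members of dense clusters and for other IDR intervals. Bars are the IDR list, triangles, squares and inverted triangles are replicates 1, 2 and 3 with clusters built from each alone, and dotted lines are tiles of the chromosome arms. The Zelda and GAGA motifs were higher in dense clusters in all 3 replicates and the DREF, Motif 1 and Twist motifs lower. Of the motifs not drawn, CACCTG was also higher in all 3 replicates, and CGATA, CAAGGTCA and AAAAAAA were also lower. Among the stronger IDR intervals alone, not drawn, GAGAG was in 35.6% of members and 37.7% of others.

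The X held a lower share of its intervals in clusters than the other large arms. Members made up 24.4% of intervals on 2L, 22.0% on 2R, 23.0% on 3L, 23.1% on 3R and 16.3% on X, with 42, 39, 42, 50 and 23 clusters. Chromosome 4 had 1 cluster of 5 among its 37 intervals (13.5%). Intervals were sparser on the X, with 713 on 23.5 Mb, against 820 on the 23.5 Mb of 2L. There were 872 on 25.3 Mb of 2R, 917 on 28.1 Mb of 3L and 1088 on 32.1 Mb of 3R. Embryos were of mixed sex. Neither the number of X copies nor the density of intervals was allowed for.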

How the data were processed

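The authors deposited narrowPeak lists on dm6, per the labels: 3 replicate lists and a pooled list of 30000 peaks each, and an optimal irreproducible discovery rate (IDR) list of 5049 peaks. Per the deposited text files, replicate peaks came from each alignment and 1 shared control, and both kinds of list together gave the IDR list. The deposited signal value has no stated scale and was compared within a list only. The deposited −log10 q value was 4.16 for every IDR peak and was not used further. For caller, aligner and their settings, nothing is given in the sources used here. Read depth is unknown, so no counting interval is given.

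Members and gene lists were chosen with earlier results of these data known. The linking rule was tested on simulated data. Summits were assigned with Ensembl release 115 to promoters, then 5′ UTRs, coding exons, 3′ UTRs, introns, noncoding genes and intergenic sequence. The spread between replicates came from the same rule on each replicate's 5049 strongest peaks (mean ± SD, n = 3). No test over intervals or genes was made. Replicate signal is the highest of a peak sharing at least 50% of either, over the median of that replicate's 5049 strongest. The 16 motifs were read on both strands. Clusters named are the 12 with most intervals, the 5 others of highest summed signal, Mabi's, and the narrowest and widest, with up to 4 genes each. From each list the 4 genes with most member summits are named, or all of 5 or fewer. A further few were named after their values were seen, as neighbours of these (the mnd, InR, sna, rpr, ribosomal and eIF3i clusters and the 7 clusters met in no replicate). In the gene lists, 5 symbols had no match in the annotation and were left out. Python 3.11.15, pandas 2.3.3 and numpy 2.4.6 were used.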

Additional observations from a re-analysis of the deposited data

How the results depend on the processing

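The lower promoter share of members than of others and their higher median signal kept their direction in every alternative run. The higher GAGAG share did so too, except among the stronger intervals only, where members had 35.6% and others 37.7%. The number of clusters depended on the rule. Of 197 clusters there were 63 with summits linked within 2500 bp, 330 within 10000 bp, 416 with groups of 3 or more, 84 with groups of 5 or more and 46 among the stronger intervals only (signal above the median). Members, 975 in the list, were 294, 1832, 1632, 523 and 216 under those settings, and 1594 with every summit row counted. Their share of intervals, 21.9%, was 6.61%, 41.2%, 36.7%, 11.8%, 9.72% and 31.6%, and 17.9% after overlapping intervals were merged, a setting chosen after seeing the data. The promoter share, 33.3%, was 35.4%, 36.0%, 36.1%, 28.1%, 29.2% and 31.7%, 29.8% after merging, and 25.0% or 42.2% with promoters reaching 250 or 1000 bp. The signal ratio of members to others, 1.14, was 1.07 within 2500 bp and 1.22 with every summit row. The share matched in all 3 replicates, 74.2%, was 98.1% among the stronger intervals, 80.7% with every summit row, 60.8% with summits within 100 bp and 98.2% against complete lists. Patterning genes with a start in a cluster, 17, were 3 within 2500 bp, 30 within 10000 bp, 9 in groups of 5 or more and 3 among the stronger intervals. The GAGAG share, 39.1%, was 37.6% within 10000 bp, 35.6% among the stronger intervals and 64.9% in windows reaching 250 bp. Leaving out each replicate in turn, by keeping intervals matched in the other 2, gave 117 to 119 clusters, 558 to 576 members, shares of 16.6% to 17.3%, signal ratios of 1.07 to 1.12, promoter shares of 29.9% to 31.7%, matched shares of 92.4% to 93.0%, 9 to 13 patterning genes and GAGAG shares of 37.3% to 38.4%. GAGAG shares of others in those runs were 35.7% to 36.1%. The causes were not tested. The same rule on the next 5049 pooled ranks gave 161 clusters with 15.6% of intervals, and 27 of the 197 clusters met one.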
